A study of Zea mays with 6 samples.

Results

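The adaxial (upper) and abaxial (lower) sides of maize leaf primordia P2 and P3, young primordia that follow P1 at the shoot apex, were compared by RNA-seq of laser-microdissected cells. The comparison used the 2 adaxial and the 2 abaxial libraries, 4 of the 6 in the series. The remaining 2 libraries, from the shoot apex center zone, are quoted as a reference and were not in the fit. All groups came from untreated wild-type B73 seedlings, an inbred line, at 14 days of age, grown in 16 h of light at 25°C and 8 h of dark at 21°C. Each replicate pooled cells of several apices, and P2 and P3 were pooled within a side, so neither single plants nor the stages can be told apart. Of 39656 annotated genes, the 17087 with a mean of at least 2 RPM on either side were tested. RPM scale a gene's reads to the uniquely aligned reads of its library and are not corrected for gene length, so levels are compared here between libraries and not between genes.

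A leaf primordium forms at the flank of the meristem, and its upper and lower sides take on different fates from the outset. In plants studied so far, these fates are set by transcription factors that act against each other. Homeodomain-leucine zipper III (HD-ZIP III) proteins and AS2-like LOB domain proteins promote the adaxial fate, and KANADI proteins and some auxin response factors (ARFs) promote the abaxial fate. Small RNAs refine the border: in maize, the microRNA miR166 keeps the HD-ZIP III gene rld1 (rolled leaf1) off the abaxial side, and trans-acting siRNAs (ta-siRNAs), whose production needs lbl1 (leafbladeless1), act against ARF3-type transcripts. YABBY proteins serve the outgrowth of the blade, and they mark the abaxial side in Arabidopsis, whereas some maize YABBY genes are described as adaxial.

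The adaxial libraries held 23568329 and 25898155 counts and the abaxial libraries 14718269 and 15453375. A count of 0 allows up to 0.112 to 0.196 RPM (3 counts), which covers counting error only. Tissue markers followed the labels. The meristem gene kn1 (knotted1) had 1.2 to 9.9 RPM in the 4 leaf libraries, against 1109.9 and 971.1 RPM in the center zone. The 8 YABBY genes, markers of lateral organs, summed to 567.4 to 579.1 RPM in the leaf libraries and to 91.3 and 23.5 RPM in the center zone. The libraries were not equally alike, however. Adaxial replicate 1 had 64 genes at 5 RPM or more that were at least 8-fold above adaxial replicate 2. Of these, 33 were also at least 8-fold higher in center zone replicate 1 than in center zone replicate 2, and for 5 the reverse held. For genes set apart in the same way in another leaf library, the counts higher in center zone replicate 1 were 3 of 31 (adaxial replicate 2), 1 of 20 (abaxial replicate 1) and 3 of 28 (abaxial replicate 2). The share over all genes was not counted. The glutathione transferase gene gst11 was among the 33, with 23.8 RPM in adaxial replicate 1, 12.2 RPM in center zone replicate 1 and 0.1 to 1.5 RPM in the other 4 libraries. None of the 64 was called, but genes so far apart within a side could hardly be called. Some called genes were also far higher in center zone replicate 1 than in replicate 2. Examples are GRMZM2G163406, higher adaxially (191.4 and 4.6 RPM), and GRMZM2G341959, higher abaxially (12.7 and 0.7 RPM). Of 22 photosynthesis genes with a read in the leaf, 17 were higher in adaxial replicate 1 than in replicate 2, and 19 were higher in center zone replicate 1 than in replicate 2. The share of all genes that were higher in these libraries was not counted. The summed level of the 28 listed photosynthesis genes was lower in adaxial replicate 1 (456.8 RPM) than in replicate 2 (567.3 RPM). The part of such replicate differences in the results was not tested.

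For the median gene the difference between the sides was small and similar in size to the differences between replicates. The median absolute log2 difference of the side means, after 1 RPM was added, was 0.183. Each side mean averages 2 libraries, so this value is not of the same kind as one between single libraries. Between single libraries the median was 0.156 to 0.328 across the sides, 0.320 for the 2 adaxial libraries and 0.170 for the 2 abaxial libraries. By this measure adaxial replicate 1 lay nearer to abaxial replicate 1 (0.156) and abaxial replicate 2 (0.199) than to its own replicate. Adaxial replicate 2 lay at 0.328 and 0.325 from the abaxial libraries, so that the median without adaxial replicate 1 was 0.315. The sides parted from each other at differences of about 2-fold instead. More than 2-fold differences were found for 1.83% of genes between the abaxial replicates, for 4.12% between the adaxial replicates, and for 5.07% to 7.32% between libraries of opposite sides. This did not hold for the largest differences. Past a log2 difference of 4 the adaxial pair (0.181% of genes) was within the range of the pairs across sides (0.0761% to 0.199%). The side means of 729 genes (4.27%) differed more than 2-fold, and the 99th percentile of the absolute log2 difference was 1.90. Genes over 2-fold whose libraries did not overlap numbered 414 higher on the adaxial side (2.42% of genes tested) and 250 higher on the abaxial side (1.46%). Without adaxial replicate 1 the second number was 407. Over 4-fold, 83 and 49 genes remained.

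**Figure D1:**
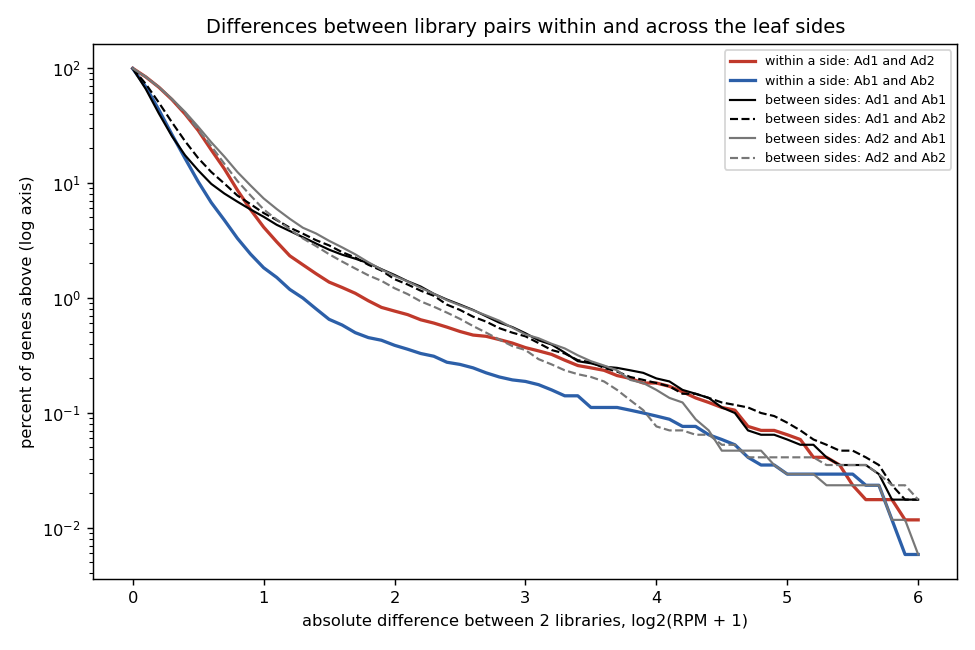
Percent of the 17087 genes tested (log axis) that exceed a given absolute difference in log2(RPM + 1) between 2 libraries, for the pair within each side (Ad1 and Ad2, red; Ab1 and Ab2, blue) and the 4 pairs across sides (black and grey). Ad and Ab are the adaxial and abaxial libraries. At small differences the adaxial pair lies with the pairs that hold Ad2, and at a log2 difference of 1 the pairs across sides (5.07% to 7.32% of genes) lie above both pairs within a side (4.12% and 1.83%). At a log2 difference of 4 the adaxial pair (0.181%) lies among the pairs across sides (0.0761% to 0.199%).

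At an adjusted p under 0.01 in edgeR's quasi-likelihood test, 75 genes differed between the sides, 0.439% of those tested. Of these, 45 were higher on the adaxial side (0.263%) and 30 on the abaxial side (0.176%). The called differences were large, with log2 fold changes (adaxial over abaxial) of 1.90 to 5.49 and a median of 3.14 for adaxial genes, and of -1.79 to -5.23 with a median of -3.23 for abaxial genes. For all 75 the libraries of the sides did not overlap, which also held for 35.8% of all genes tested (15.7% adaxial, 20.1% abaxial). In 12 adaxial and 8 abaxial genes both libraries of the lower side were under 2 RPM. In bulk samples, fewer cells of a type and less RNA per cell cannot be told apart. The number of calls depended on single libraries: it was 164 without adaxial replicate 1, 110 without adaxial replicate 2 (61 of them abaxial), 246 without abaxial replicate 1 and 300 without abaxial replicate 2. Of the 75 genes, 50 were called in each of these 4 fits, and none changed sign. In each of these fits 1 side held a single library, and more genes were called than with all 4 libraries. A call there thus adds little. A fit that also held the center zone libraries kept 13 of the 75, among them IG1, ial1, TCP30, ARF11, GRMZM2G089556 and GRMZM2G070865, and ended the other calls at the same direction.

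**Figure D2:**
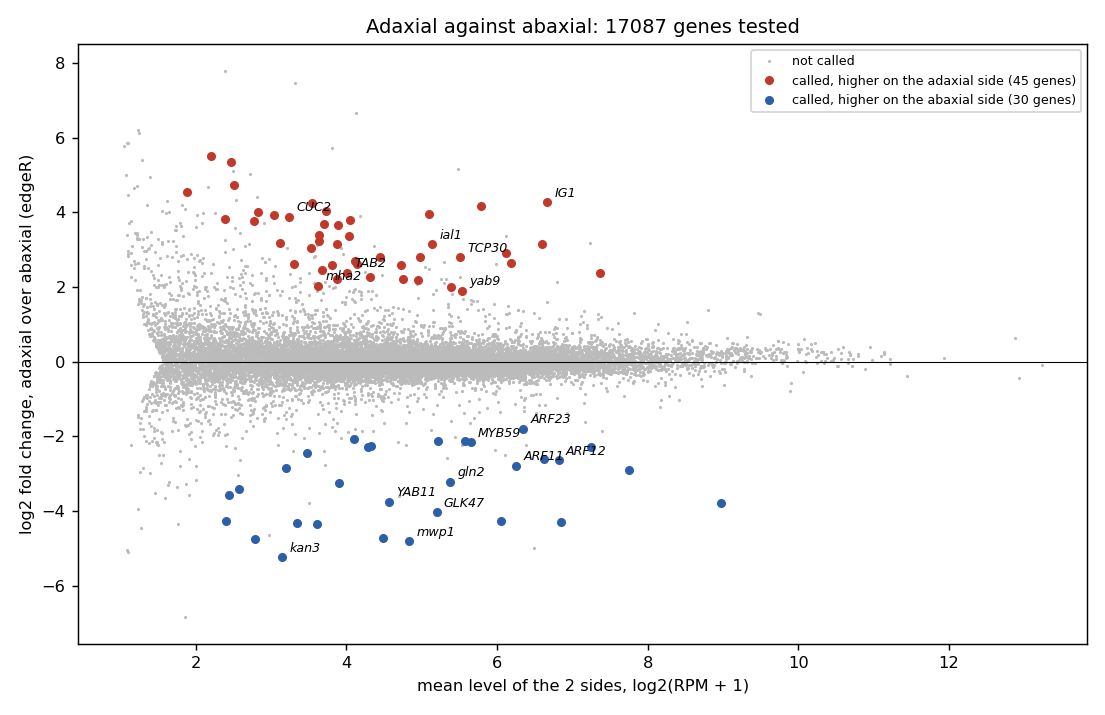
Log2 fold change, adaxial over abaxial, against the mean level of the sides in log2(RPM + 1), 1 point for each of the 17087 genes tested, with the 45 genes called higher on the adaxial side in red and the 30 called higher on the abaxial side in blue. The 16 called genes with a symbol are labelled, from IG1 at 4.26 to kan3 at -5.23.

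Both LOB domain genes of the AS2 type were among the adaxial calls. IG1 (indeterminate gametophyte1, GRMZM2G118250), which in maize acts in leaf polarity and in the embryo sac, had 201.0 and 181.8 RPM adaxially and 9.7 and 10.9 RPM abaxially. Its level was thus 19.2-fold higher on the adaxial side (log2 4.26, SE 0.20, adjusted p = 0.000164). Its relative ial1 (ig1/as2-like1, GRMZM2G133806) had 59.0 and 63.5 RPM adaxially against 7.4 and 7.0 RPM abaxially. This was an 8.83-fold difference (log2 3.14, SE 0.21, adjusted p = 0.000536). In both genes the replicates of a side lay close together and the sides were well apart. Both were also low in the center zone, at 7.2 and 3.9 RPM for IG1 and at 5.0 and 3.0 RPM for ial1. IG1 lies on chromosome 3 (169217636 to 169220962, minus strand) and ial1 on chromosome 8 (164624590 to 164627742, minus strand) of B73 RefGen_V3. LOB14, the other LOB domain gene tested, had 15.5 and 22.8 RPM against 11.2 and 15.5 RPM and was not called (adjusted p = 0.723).

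The HD-ZIP III genes differed far less than the LOB domain genes. The level of rld1 was 475.1 and 470.6 RPM adaxially and 384.0 and 374.9 RPM abaxially. The libraries of the sides did not overlap, but the difference of 1.29-fold was not called (log2 0.37, SE 0.17, adjusted p = 0.677). Its paralog rld2 (rolled leaf2) had 276.5 and 177.4 RPM adaxially against 102.6 and 88.6 RPM abaxially. The adaxial libraries were both higher, at 2.44-fold in the fit (log2 1.28, SE 0.22, adjusted p = 0.0321), short of the threshold. It passed with DESeq2 (adjusted p = 3.28e-06), no filter (adjusted p = 0.00267) or the replicate block (adjusted p = 4.44e-08). It failed with library size alone, limma-trend, a 10 RPM filter and all 6 libraries (adjusted p = 0.0200 to 0.201). Leaving out a library gave log2 fold changes of 1.00 to 1.52. Both genes were also abundant in the center zone, with 349.2 and 444.1 RPM for rld1 and 323.7 and 461.5 RPM for rld2. Thus no HD-ZIP III gene with a symbol was absent from the abaxial libraries.

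No gene tested that acts with these factors was called, where 0.439% of all genes were. The MYB gene rs2 (rough sheath2), which keeps knotted-type homeobox genes off in leaves, had 49.5 and 88.6 RPM against 94.2 and 88.3 RPM, with overlapping libraries. In the ta-siRNA pathway, lbl1, which encodes an SGS3-type protein, had 352.3 and 245.7 RPM adaxially and 342.8 and 326.9 RPM abaxially (log2 -0.12, SE 0.20, adjusted p = 0.943). In the center zone lbl1 stood at 957.4 and 1051.5 RPM. The Dicer-like gene dcl4 had 45.4 and 36.7 RPM against 49.2 and 51.6 RPM. The Dicer gene dcl1, which makes microRNAs, had 44.4 and 42.1 RPM against 83.6 and 78.1 RPM, 1.81-fold higher abaxially with no overlap but not called (log2 -0.85, SE 0.17, adjusted p = 0.0658). It passed with DESeq2 (adjusted p = 0.00206) and with the replicate block (adjusted p = 0.000972). It failed with library size alone, limma-trend, no filter, a 10 RPM filter and all 6 libraries (adjusted p = 0.0301 to 0.262). A further 3 entries of this list, rdr6 and other models of dcl4, were under 2 RPM.

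The 3 KANADI genes with a symbol had the largest median log2 fold change of the polarity families, -4.80, beside 3.70 for the LOB domain pair. mwp1 (milkweed pod1, GRMZM2G082264), a maize KANADI gene known from mutants with patches of altered leaf side, had 51.4 and 55.3 RPM abaxially, whereas adaxially it had 2.2 and 1.5 RPM. It was 27.8-fold higher on the abaxial side (log2 -4.80, SE 0.25, adjusted p = 0.000199). kan3 (GRMZM2G175827) had 19.4 and 11.2 RPM abaxially and 0.5 and 0.3 RPM adaxially (log2 -5.23, SE 0.46, adjusted p = 0.00195), which was the strongest abaxial change among the called genes. Both adaxial libraries were thus under 1 RPM for kan3. kan1 (GRMZM2G056400) showed the same pattern, with 12.9 and 13.5 RPM against 0.9 and 0.1 RPM. Its adjusted p of 0.0410 missed the threshold (log2 -4.64, SE 0.73). Leaving out a library gave log2 fold changes of -3.82 to -6.70. In the center zone, kan1 and kan3 had 0.9 RPM or less and mwp1 4.4 and 0.5 RPM. When the center zone libraries were added to the fit, mwp1 (adjusted p = 0.298) and kan3 (adjusted p = 0.125) were no longer called, at the same fold changes. mwp1 lies on chromosome 7 (107233099 to 107239726, minus strand), kan3 on chromosome 4 (80073206 to 80086056, plus strand) and kan1 on chromosome 1 (215606266 to 215611664, minus strand).

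The YABBY genes did not share a side. Of the 8 tested, 1 was called higher adaxially and 1 higher abaxially, beside 0.263% and 0.176% of all genes tested. The median log2 fold change was -0.08, beside -0.0013 over all genes tested. YAB11 (GRMZM2G141955) had 48.1 and 36.9 RPM abaxially and 4.1 and 2.1 RPM adaxially, a 13.4-fold difference (log2 -3.75, SE 0.33, adjusted p = 0.00195). In contrast, yab9 (GRMZM2G074543) had 59.6 and 82.0 RPM adaxially and 20.2 and 19.5 RPM abaxially, 3.72-fold higher on the adaxial side (log2 1.90, SE 0.23, adjusted p = 0.00856). YAB5 resembled YAB11, with 49.7 and 50.5 RPM abaxially against 7.5 and 1.3 RPM adaxially. The spread of its adaxial libraries left it uncalled (log2 -3.51, SE 0.89, adjusted p = 0.434), although the sides did not overlap. Leaving out a library gave log2 fold changes of -2.76 to -5.15. The other members were expressed on both sides. yabby15 had 374.3 and 373.2 RPM adaxially and 293.9 and 319.8 RPM abaxially, yab14 70.1 and 76.9 RPM against 111.8 and 104.1 RPM, and yab10 19.9 and 29.1 RPM against 40.2 and 41.0 RPM. Each of these differed by at most 1.59-fold and was not called. YAB3 had 10.5 and 2.9 RPM against 2.2 and 5.1 RPM, with overlap. YAB6 reached 22.6 RPM in adaxial replicate 1 and 0.2 RPM in adaxial replicate 2, beside 1.3 and 2.2 RPM abaxially, so its fold change rested on 1 library and reversed without it (log2 -2.84). Because such opposite differences offset each other, the summed YABBY level was nearly the same on both sides, at 568.6 and 567.7 RPM adaxially and 567.4 and 579.1 RPM abaxially.

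ARFs, which bind auxin response elements in promoters, held 3 abaxial calls and no adaxial call among 17 genes tested. Of all genes tested, 0.176% were called abaxial and 0.263% adaxial. ARF11 (GRMZM2G056120) had 131.5 and 133.4 RPM abaxially and 19.2 and 18.0 RPM adaxially, a 6.88-fold difference (log2 -2.78, SE 0.18, adjusted p = 0.000509). ARF12 (GRMZM2G437460) had 215.9 and 171.4 RPM against 40.4 and 20.5 RPM (log2 -2.64, SE 0.30, adjusted p = 0.00873). ARF23 (GRMZM2G441325) had 118.4 and 133.1 RPM against 34.4 and 35.8 RPM (log2 -1.79, SE 0.18, adjusted p = 0.00339). In all 3 genes the sides were apart and both adaxial libraries stayed at 18.0 RPM or more. In the center zone their levels were between those of the sides, at 39.9 and 60.0 RPM for ARF11, 60.4 and 76.7 RPM for ARF12, and 77.3 and 106.7 RPM for ARF23. The genes lie on chromosome 3 (ARF11, 196568222 to 196574187; ARF12, 210265410 to 210273272) and chromosome 6 (ARF23, 158647498 to 158653792), all on the plus strand.

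The 14 other ARF genes were not called. ARF21 had 6.1 and 1.6 RPM abaxially and 0.5 and 0.3 RPM adaxially (log2 -3.22, SE 0.78, adjusted p = 0.126). It passed with the replicate number as a block (log2 -3.05, adjusted p = 3.47e-05). It failed with library size alone, DESeq2, limma-trend, no filter and all 6 libraries (adjusted p = 0.0101 to 0.347). Leaving out a library gave log2 fold changes of -1.93 to -3.90. ARF5 was low on both sides, with 2.2 and 2.8 RPM adaxially and 1.0 and 1.4 RPM abaxially, beside 55.0 and 83.1 RPM in the center zone. ARF10 had 482.1 and 446.1 RPM adaxially and 408.8 and 363.0 RPM abaxially, a 1.24-fold difference (adjusted p = 0.785). ARF3 had 176.1 and 79.5 RPM against 158.7 and 142.2 RPM, with overlapping libraries. ARF30 had 23.4 and 7.2 RPM adaxially and 25.8 and 33.8 RPM abaxially. The remaining genes (ARF1, ARF2, ARF4, ARF9, ARF13, ARF16, ARF17, ARF18 and ARF28) had log2 fold changes from -0.56 to 0.51. Over the 17 genes the median log2 fold change was -0.17. Which maize ARF genes are of the ARF3 type is not given by the gene names, and the symbols follow the maize numbering rather than that of Arabidopsis.

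**Figure D3:**
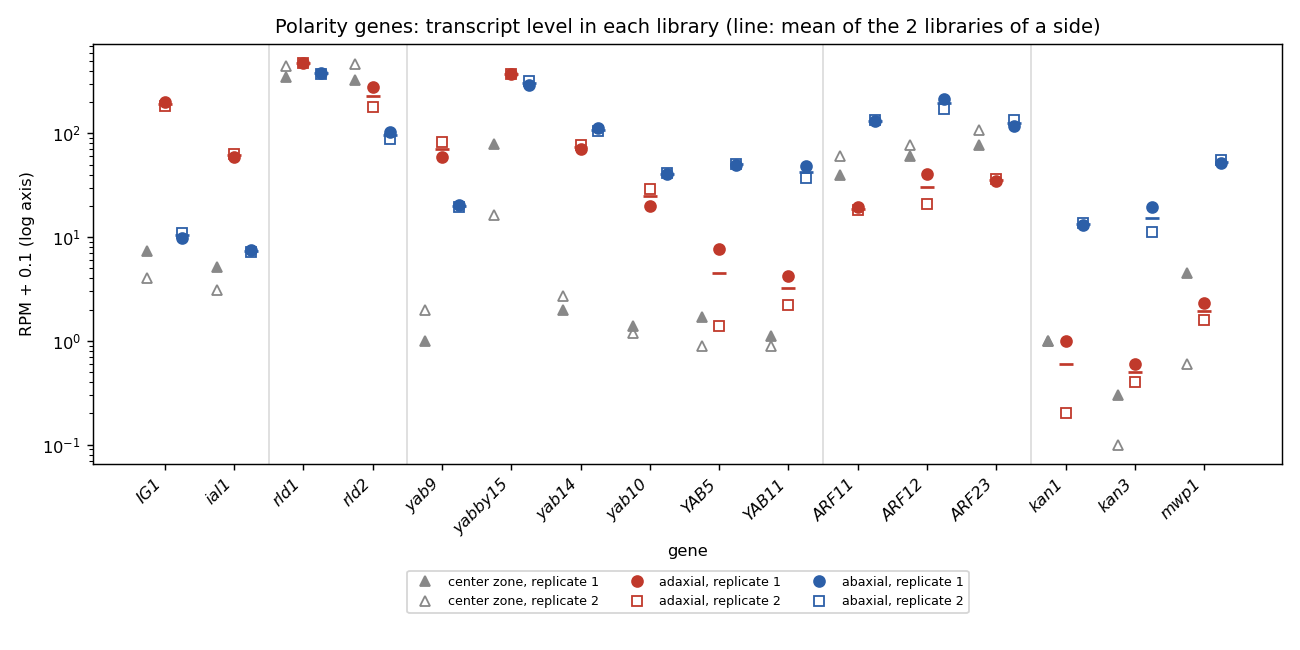
Level of 16 polarity genes in each library as RPM + 0.1 on a log axis, with center zone (grey), adaxial (red) and abaxial (blue) libraries and a line at the mean of each side. The LOB domain genes IG1 and ial1 are high only in the red points (59.0 to 201.0 RPM), the KANADI genes at right only in the blue points (11.2 to 55.3 RPM), and rld1, yabby15 and yab14 are high in both sides.

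Of the WOX homeobox genes, some of which act in outgrowth of the leaf margin, 2 of 12 passed the filter and neither was called. ns1 (narrow sheath1) had 1.0 and 3.1 RPM adaxially and 3.0 and 1.1 RPM abaxially. wox3A had 5.0 and 4.2 RPM against 1.2 and 3.0 RPM (log2 1.14, SE 0.51, adjusted p = 0.627). At these low levels the side of ns1 expression was not detectable, as its libraries overlapped.

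Of other families of leaf transcription factors, the TCP and NAC lists held 1 call each and the remaining lists none. Since 0.439% of all genes were called, no call is near the background at these list sizes. Of 7 TCP genes, which regulate growth and branching, TCP30 (GRMZM2G166946, chromosome 3, 194884444 to 194887065) was called, with 77.5 RPM in each adaxial library and 12.3 and 10.7 RPM in the abaxial libraries (log2 2.80, SE 0.20, adjusted p = 0.000819). TCP7 had 27.9 and 10.9 RPM abaxially and 2.0 and 0.8 RPM adaxially, and missed the threshold (log2 -3.78, SE 0.62, adjusted p = 0.0552). It passed with DESeq2 (adjusted p = 3.18e-10) and with the replicate block (adjusted p = 2.85e-27). It failed with library size alone, limma-trend, no filter, a 10 RPM filter and all 6 libraries (adjusted p = 0.0220 to 0.0949). Leaving out a library gave log2 fold changes of -2.94 to -4.52. The other 5 TCP genes had log2 fold changes from -1.02 to 0.37. Of 8 NAC genes only CUC2 was called. None of the 17 growth-regulating factor genes and their GIF cofactors was called. GIF1, a cofactor in cell proliferation, had 688.7 and 680.6 RPM adaxially and 1428.4 and 988.3 RPM abaxially (log2 -0.77, SE 0.23, adjusted p = 0.250). None of the 19 SBP genes was called. sbp16 had 191.2 and 124.2 RPM against 239.3 and 229.8 RPM, and sbp1 was read almost only abaxially, in replicate 1 more than in replicate 2 (8.9 and 1.5 RPM, against 0.0 and 0.1 RPM adaxially, adjusted p = 0.0731).

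Only 16 of the 75 called genes had a symbol. Besides IG1, ial1, yab9 and TCP30, these were CUC2, TAB2 and mha2 on the adaxial side. CUC2 (GRMZM2G393433), named after a NAC gene of organ boundaries in Arabidopsis, had 11.5 and 20.1 RPM adaxially and 1.4 and 0.8 RPM abaxially (log2 3.88, SE 0.46, adjusted p = 0.00674). Its center zone levels were far higher, at 353.9 and 277.1 RPM, and it lost the call without adaxial replicate 2 (log2 3.34, adjusted p = 0.0175). mha2, a plasma membrane proton pump gene, had 19.3 and 17.0 RPM against 4.8 and 4.4 RPM (log2 2.04, SE 0.25, adjusted p = 0.00856). It lost the call without either adaxial library (adjusted p = 0.0150 and 0.0142). TAB2 had 21.5 and 28.8 RPM against 5.9 and 4.2 RPM (log2 2.38, SE 0.30, adjusted p = 0.00928), and it was not called without adaxial replicate 2 (adjusted p = 0.0188). With a filter of 10 RPM, yab9, mha2 and TAB2 stood just past the threshold (adjusted p = 0.0104 to 0.0111).

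On the abaxial side, GLK47, gln2 and MYB59 joined the KANADI, YABBY and ARF genes. GLK47 (GRMZM2G060834, chromosome 5, 199288141 to 199293157) belongs by its name to the G2-like family, the family that also holds the KANADI genes. It had 74.5 and 60.5 RPM abaxially and 2.5 and 5.4 RPM adaxially, a 16.3-fold difference (log2 -4.02, SE 0.40, adjusted p = 0.00639). In the center zone it had 1.9 and 1.2 RPM. gln2, a glutamine synthetase gene, had 73.1 and 74.1 RPM against 5.4 and 9.8 RPM (log2 -3.21, SE 0.32, adjusted p = 0.00430). MYB59 (GRMZM2G130149) had 80.7 and 81.2 RPM against 20.5 and 14.7 RPM (log2 -2.16, SE 0.20, adjusted p = 0.00228), while a second locus with this symbol (GRMZM2G093789) was not called (log2 0.13). GLK47, gln2 and MYB59 were called in each fit that left out a library.

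The other 59 called genes had no symbol, and several changed by as much as the polarity genes. The largest adaxial change was that of GRMZM2G126413, with 6.0 and 8.2 RPM adaxially and 0.1 and 0.2 RPM abaxially (log2 5.49, SE 0.63, adjusted p = 0.00630). It lost the call without adaxial replicate 2 (adjusted p = 0.0165) and with limma-trend (adjusted p = 0.0130). GRMZM2G089556 followed, with 9.9 and 7.9 RPM against 0.2 RPM in each abaxial library (log2 5.33, SE 0.47, adjusted p = 0.00199). GRMZM2G038497 had 15.6 and 25.0 RPM against 1.1 RPM in each abaxial library (log2 4.25). GRMZM2G039934 (8.5 and 9.5 RPM against 0.2 and 0.5 RPM) and GRMZM2G168382 (6.0 and 4.3 RPM against 0.3 and 0.2 RPM) were as one-sided in the leaf. Both were also high in center zone replicate 1 (33.4 and 19.3 RPM) and not in replicate 2 (0.5 and 0.1 RPM), and both lost the call without adaxial replicate 2 (adjusted p = 0.0138 and 0.0125). GRMZM2G168382 lost it without adaxial replicate 1 (adjusted p = 0.0174) and with limma-trend (adjusted p = 0.0222) as well.

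On the abaxial side, most of the genes without a symbol that changed most were under 2 RPM in both adaxial libraries. GRMZM2G123972 had 260.6 and 177.0 RPM abaxially and 8.9 and 12.4 RPM adaxially, a 19.7-fold difference (log2 -4.30, SE 0.30, adjusted p = 0.000979). GRMZM2G070865 had 47.4 and 35.0 RPM against 1.7 and 1.3 RPM (log2 -4.73, SE 0.28, adjusted p = 0.000327). GRMZM2G152975 (12.1 and 10.8 RPM against 0.6 and 0.2 RPM), GRMZM2G150351 (18.5 and 24.2 RPM against 1.3 and 0.8 RPM) and GRMZM2G378604 (22.0 and 12.9 RPM against 1.2 and 0.5 RPM) had log2 fold changes of -4.73, -4.34 and -4.32. All but GRMZM2G378604, which missed the threshold without adaxial replicate 2 (adjusted p = 0.0132), were called in each fit without a library. A few more were chosen after their values were seen. GRMZM2G152591 had 1063.1 and 812.0 RPM abaxially and 71.8 and 60.9 RPM adaxially (log2 -3.78, SE 0.23, adjusted p = 0.000327), and GRMZM5G845891 had 132.6 and 116.0 RPM against 6.6 and 6.1 RPM (log2 -4.25). GRMZM2G110107 (89.0 and 116.4 RPM adaxially, 4.2 and 7.7 RPM abaxially) and GRMZM5G887276 (59.8 and 65.4 RPM adaxially, 4.1 and 4.3 RPM abaxially) were their adaxial counterparts, with log2 fold changes of 4.16 and 3.95.

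Within 100 kb of each other lay 4 pairs of called genes, and the members of each pair were higher on the same side. The closest were GRMZM2G147256 and GRMZM2G147268, 1157 bp apart on the minus strand of chromosome 2 (29261515 to 29264814 and 29265971 to 29269850). The first had 28.7 and 24.1 RPM abaxially against 5.9 and 6.3 RPM adaxially, and the second 28.0 and 35.3 RPM against 7.1 and 5.8 RPM. The first was not called without either adaxial library (adjusted p = 0.0108 without replicate 1 and just past 0.01 without replicate 2). TAB2 lay 31055 bp from GRMZM2G512113 on chromosome 5, which had 318.5 and 230.5 RPM adaxially and 57.1 and 51.6 RPM abaxially (log2 2.38, SE 0.20, adjusted p = 0.00181).

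The mean center zone level gave a reference for placing the called genes relative to the meristem. Of the 45 adaxial genes, 17 had a mean center zone level below both sides, as IG1 and TCP30 did, 19 lay between the sides, and 9 lay above both, as CUC2 did. Of the 30 abaxial genes, 15 lay below both sides, as kan3 and YAB11 did, 15 lay between, as the ARF genes did, and 0 lay above both. These counts are descriptions, since no test was made against the center zone, and they rest on means of 2 libraries. GRMZM2G039934, GRMZM2G168382, GRMZM2G007953 and GRMZM2G462537 lay above both sides through center zone replicate 1 alone. They had 33.4, 19.3, 75.8 and 15.6 RPM there, against 0.5, 0.1, 0.4 and 1.8 RPM in replicate 2. For kan3 the center zone and adaxial levels were all at 0.5 RPM or less.

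**Figure D4:**
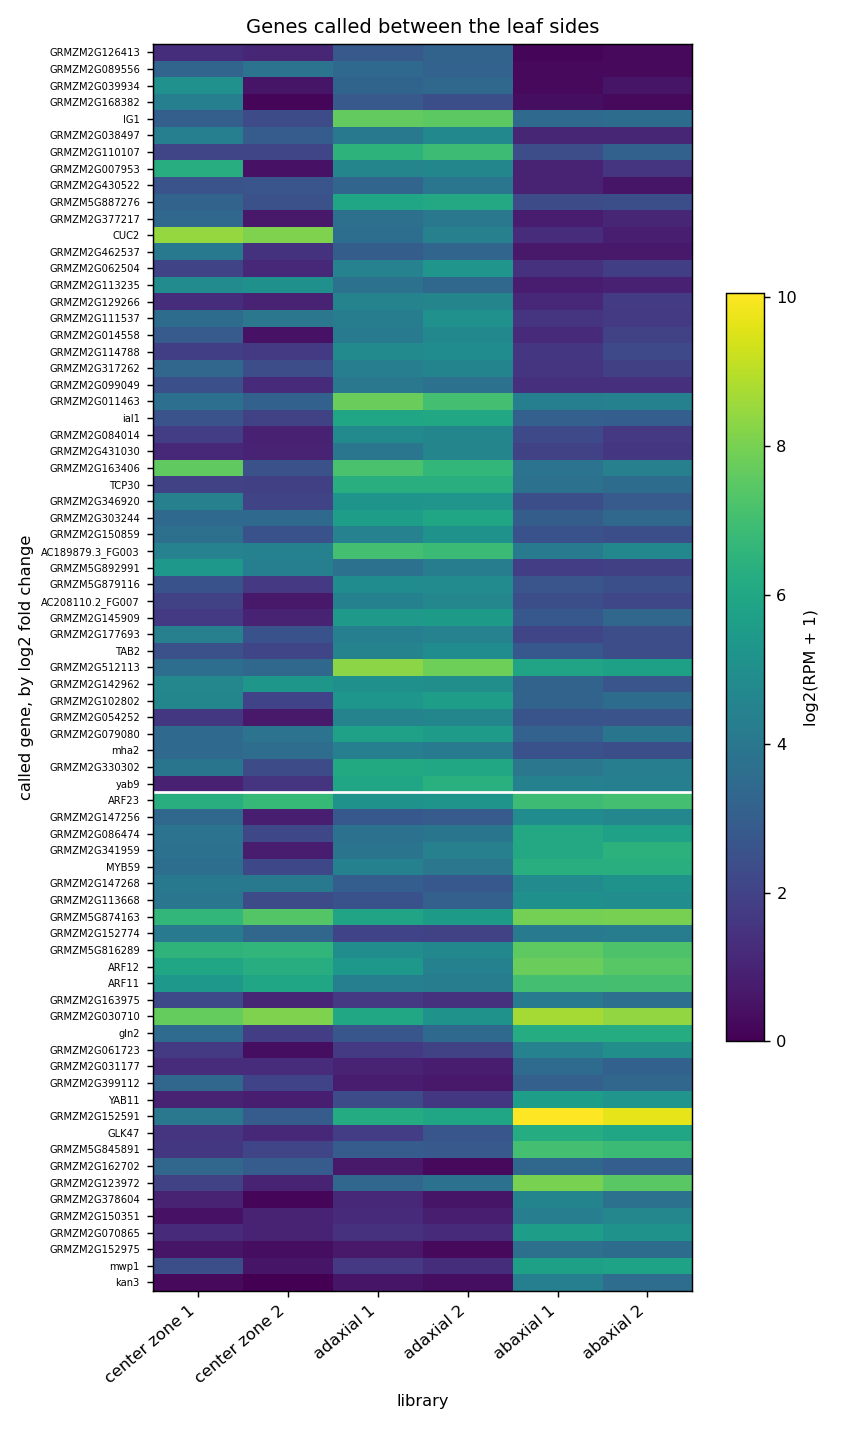
Level of the 75 called genes as log2(RPM + 1) in each of the 6 libraries, 1 row per gene, ordered by log2 fold change, with the 45 genes higher on the adaxial side above the white line and the 30 higher on the abaxial side under it. The replicates of a leaf side look alike in nearly every row, which the choice of called genes favors. Some rows, such as GRMZM2G039934 (33.4 and 0.5 RPM), differ between the center zone replicates, which were not in the fit.

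Apart from the ARF genes above, hormone genes held no call, where 0.439% of all genes were called, so at these list sizes the count is near the background. No member of the lists for auxin transport (6 tested), Aux/IAA and auxin response (4), cytokinin (19), gibberellin (2) or brassinosteroid (2) was called, and none of 9 auxin synthesis genes reached the filter. The auxin exporter gene PIN1d had 156.3 and 187.3 RPM adaxially and 189.4 and 178.7 RPM abaxially. BIF4, an Aux/IAA gene known from the maize inflorescence, had 6.7 and 8.3 RPM adaxially and 0.9 and 1.1 RPM abaxially (log2 2.93, SE 0.42, adjusted p = 0.0163). Its relative BIF1 had 6.6 and 8.1 RPM against 9.9 and 18.1 RPM (adjusted p = 0.489). The cytokinin response regulator gene abph1 (aberrant phyllotaxy1) had 3.4 and 4.7 RPM against 0.5 and 0.4 RPM (log2 3.23, SE 0.55, adjusted p = 0.0321), and the phosphotransfer gene hp2 had 71.6 and 70.8 RPM against 79.2 and 69.0 RPM. The DELLA gene D8 (84.0 and 105.2 RPM against 121.1 and 103.2 RPM) and the brassinosteroid synthesis gene DWF1 (372.5 and 655.0 RPM against 454.1 and 492.6 RPM) had overlapping libraries.

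Genes of growth and housekeeping held no call, which is near the background at these list sizes, as 0.439% of all genes were called. None of 39 cell cycle and histone genes was called, and their median absolute log2 fold change was 0.13, beside 0.19 over all genes tested. The linker histone gene his1a had 1019.2 and 1431.2 RPM adaxially and 1036.5 and 934.3 RPM abaxially. Of 31 ribosomal protein genes none was called either, with a median log2 fold change of 0.26, also the median of its absolute values. For 14 of them both adaxial libraries were above both abaxial libraries and for 1 the reverse held (15.7% and 20.1% of all genes). rps4 (GRMZM2G035017) had 1412.0 and 1826.1 RPM against 1431.2 and 1254.3 RPM. None of 15 cell wall genes was called, and their median absolute log2 fold change was 0.31. Among the expansin genes, which loosen cell walls, expB8 had 374.8 and 605.2 RPM adaxially and 207.2 and 280.5 RPM abaxially (adjusted p = 0.196). EXPA5 had 12.3 and 26.0 RPM against 2.0 and 3.7 RPM (adjusted p = 0.0520), and expa1 4.1 and 3.1 RPM against 0.1 and 0.4 RPM (adjusted p = 0.0410).

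Markers of other cell types that either capture could hold were also examined. A list without a call is near the background at these list sizes, as 0.439% of all genes were called. Of 11 meristem markers, CUC2 was the only call, and the summed level of the 20 listed genes was 136.5 and 145.9 RPM adaxially and 144.6 and 131.6 RPM abaxially, against 2404 and 2044 RPM in the center zone. The sum hides single genes. kn1 had 9.9 and 2.4 RPM adaxially against 2.7 and 1.2 RPM abaxially (adjusted p = 0.591), and abph1, as given above, was higher in both adaxial libraries. wox9B, under the filter on both sides, had 1.0 and 2.8 RPM adaxially and 0.0 and 0.1 RPM abaxially, against 58.1 and 104.1 RPM in the center zone. lg3 had 2.5 and 4.3 RPM adaxially against 11.2 and 7.6 RPM abaxially and was not called. The part of meristem cells in the adaxial calls was not tested. Epidermis genes (11 tested, none called) summed to 9786 and 11512 RPM adaxially and to 8242 and 7559 RPM abaxially, mostly from the lipid transfer protein gene LTP3 (8100.8 and 9871.1 RPM against 6208.3 and 5842.1 RPM, adjusted p = 0.512). Vasculature and lignin genes (10 tested, none called) summed to 310.3 and 351.3 RPM against 223.3 and 239.0 RPM. The part of an unequal share of epidermis or vasculature in the calls was not tested. Of the 9 photosynthesis genes none was called, and Pep1 had 308.3 and 426.0 RPM against 456.8 and 445.5 RPM. The stomatal lineage gene pan1 had 84.2 and 124.2 RPM against 142.8 and 121.7 RPM. Of the 2 ligule and boundary genes, CUC2 was called. lg2 (liguleless2), which acts at the blade and sheath boundary, had 13.4 and 10.3 RPM adaxially and 2.3 and 2.6 RPM abaxially (log2 2.30, SE 0.32, adjusted p = 0.0142).

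**Figure D5:**
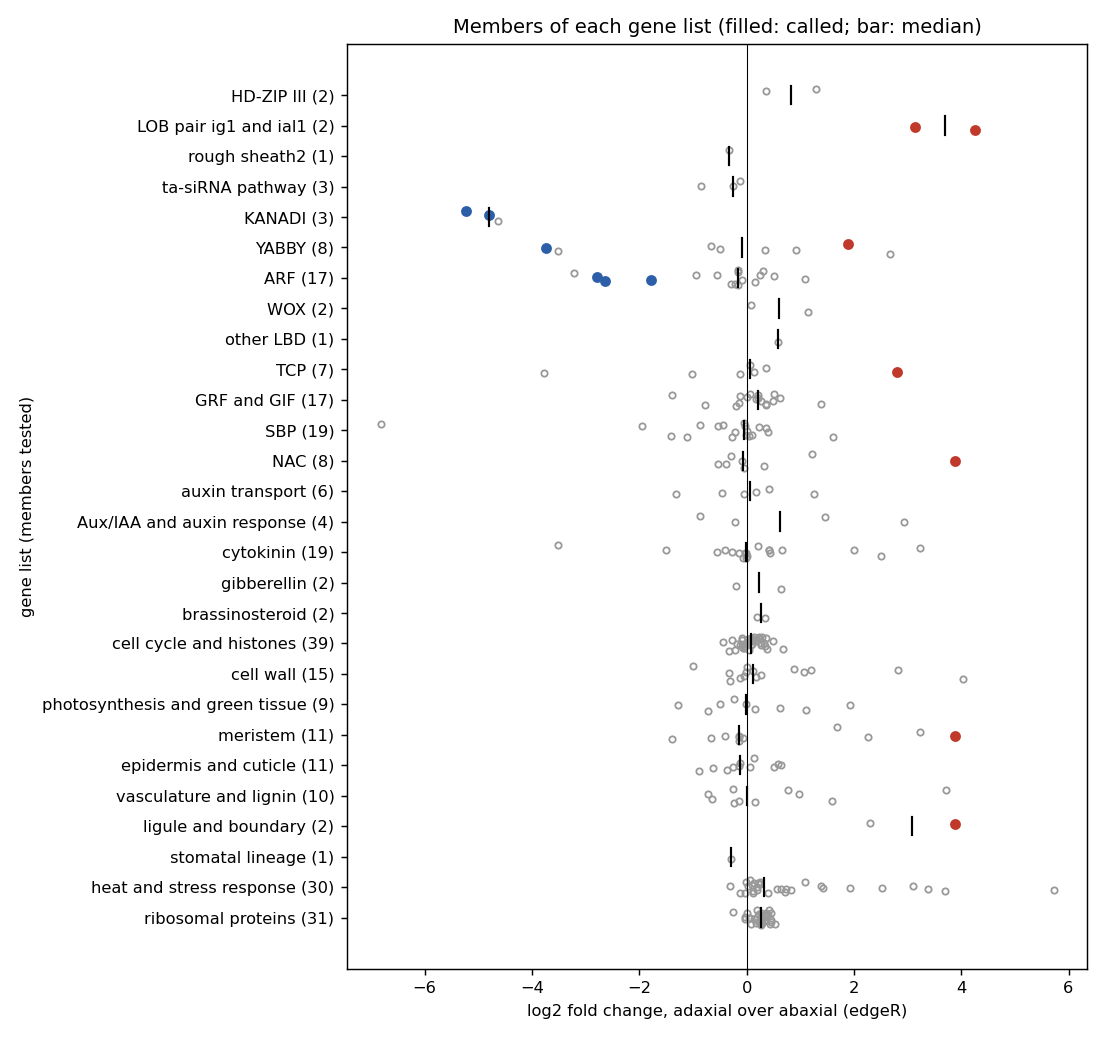
Log2 fold change, adaxial over abaxial, of each tested member of the 28 gene lists with a tested member (number tested in brackets), with called genes filled in red (adaxial) or blue (abaxial), open points not called, and a bar at the list median. Called genes occur in the LOB, KANADI, YABBY, ARF and TCP lists and, as the same gene CUC2, in the NAC, meristem and ligule lists. The median is 0.08 for cell cycle and histone genes and 0.26 for ribosomal protein genes.

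A less strict threshold added mainly adaxial genes. At an adjusted p under 0.05, 221 genes passed (1.29% of those tested), 154 of them higher adaxially. Of the 146 genes between the thresholds 21 had a symbol, 19 of them higher adaxially and 2 abaxially (kan1 and cc7, the latter with 20.7 and 27.7 RPM against 5.7 and 7.0 RPM). They included rld2, BIF4, abph1, lg2 and expa1 above. Of 30 heat and stress response genes none was called at 0.01, and 4 lay between the thresholds on the adaxial side: gst41 (570.6 and 703.3 RPM against 299.4 and 208.4 RPM), gst20 (22.5 and 28.6 RPM against 6.7 and 7.2 RPM), gst5 (17.2 and 18.0 RPM against 7.2 and 6.5 RPM) and HSP18 (8.1 and 6.9 RPM against 1.7 and 1.0 RPM). The superoxide dismutase gene Sod4A had 686.9 and 920.5 RPM against 766.5 and 804.7 RPM. In phenylpropanoid metabolism PAL1, a phenylalanine ammonia-lyase gene, had 123.3 and 175.3 RPM against 54.6 and 48.3 RPM (adjusted p = 0.0187). The lignin gene BM1 (brown midrib1) had 6.9 and 2.3 RPM against 0.3 and 0.4 RPM (adjusted p = 0.0451). aos1, an allene oxide synthase gene of jasmonate synthesis, had 9.4 and 8.2 RPM against 1.6 and 1.1 RPM (adjusted p = 0.0163), and incw1, a cell wall invertase gene, 5.1 and 5.9 RPM against 0.7 and 1.0 RPM (adjusted p = 0.0331). MADS36 (16.4 and 34.3 RPM against 3.3 and 3.2 RPM), OFP32 (20.6 and 33.3 RPM against 7.5 and 8.0 RPM), m31 (4.8 and 13.4 RPM against 0.4 and 0.6 RPM), AR2 (11.1 and 13.4 RPM against 4.0 and 2.9 RPM), sdh1 (23.2 and 34.6 RPM against 9.1 and 7.0 RPM) and GR2b (7.0 and 11.1 RPM against 2.3 and 2.1 RPM) were the remaining adaxial genes with a symbol. Of the adaxial genes with a symbol between the thresholds, rld2, MADS36, BM1, BIF4 and abph1 had a mean center zone level above both sides, and the others did not. The center zone libraries had 53.5 and 35.3 RPM for MADS36, 55.4 and 30.7 RPM for BM1, 33.0 and 37.4 RPM for BIF4, and 89.2 and 63.9 RPM for abph1.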

How the data were processed

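Sections of 8 µm were laser-microdissected, and RNA was linearly amplified before TruSeq library construction and single-end sequencing. According to the study's methods, the authors trimmed bases of a Phred score under 15, aligned reads with GSNAP (version not given in the sources used here) to B73 RefGen_V3, kept uniquely aligned reads, and counted them per annotated gene; amplification captures mainly 3′ ends. The deposited table holds counts per gene and library, not pooled, and RPM rounded to 1 decimal, which the authors scaled to all uniquely aligned reads. Strandedness is not stated, so overlapping genes and close paralogs are uncertain.

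Counts of the 4 leaf libraries were fitted with edgeR 4.0.16 in R 4.3.3 (TMM, robust quasi-likelihood F test, 2 residual degrees of freedom, Benjamini-Hochberg over 17087 genes). Standard errors (SE) were taken as the log2 fold change over the root of its F value. The biological coefficient of variation was 23.9%. On simulated data for this comparison (17087 genes, 200 changed), 10% of genes were found at a log2 fold of 1, 83.5% at 2, 98% at 3 and 100% at 4, with 0 false calls. The simulation gave all libraries the same spread at a given level, whereas the adaxial replicates differed more than the abaxial ones. These rates may therefore not hold for the real libraries. Alternatives were DESeq2 1.42.0, limma-trend 3.58.1 (prior count 2), library size alone, no filter, 10 RPM, an adjusted p under 0.05, all 6 libraries, a replicate block, 0.1 or 5 RPM added, and leaving out each library. The replicates of a side differed beyond counting noise. Whether they share plants or a capture day is not stated, so p-values measure the spread between these samples.

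Symbols came from RefSeq (Zm-B73-REFERENCE-NAM-5.0, used for names only): 18775 of 39656 IDs matched and 2681 had a symbol. The lists therefore hold only members with a symbol. Members and lists were chosen with earlier results of these data known. Named are all polarity genes past the filter, in each direction the 15 called genes with a symbol and the 5 without that changed most, and up to 4 called members, or else the most abundant, of every other list. Further names were chosen after their values were seen: kn1, lg3, wox9B, gst11, TCP7, sbp1, EXPA5, the genes between the thresholds, and the genes named as such in the text.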

Additional observations from a re-analysis of the deposited data

How the results depend on the processing

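With 2 libraries a side, the number of calls moved with the processing while the direction of the calls did not. Of the 75 calls, none changed sign under any alternative. Genes called (adaxial and abaxial in brackets) numbered 148 (99 and 49) with library size alone, 354 (238 and 116) with DESeq2, 230 (160 and 70) with no filter, 221 (154 and 67) at an adjusted p under 0.05, and 13 (9 and 4) in a fit of all 6 libraries. Limma-trend gave 81 and a filter of 10 RPM gave 58. Leaving out 1 library gave 110 to 300 calls (49 to 219 adaxial, 49 to 81 abaxial), where the lone library of a side is assumed to vary like the others. The replicate block gave 747 calls (501 and 246). The labels give no shared plant or day for a number, so the numbers were not taken as pairs. Deviations of same-numbered libraries correlated at 0.203, and whether they share a source is not known. The 75 calls were all also made by DESeq2, by library size alone, with no filter and with the block, 71 by limma-trend and 13 in the fit of all 6 libraries. The cause of these differences was not tested.

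The median absolute difference ranged from 0.155 to 0.315 when a library was left out. Genes over 2-fold without overlap numbered 180 adaxial and 101 abaxial with 5 RPM added, and 218 and 133 with a filter of 10 RPM, which tests fewer genes. Leaving out a library gave 440 to 574 adaxial and 267 to 407 abaxial genes. For single genes, 103 fold changes had 1214 alternative values: 996 left the verdict as it was, 39 ended a call, 158 made one and 21 reversed, none of a called gene. The reversals came from leaving out a library, giving a log2 fold change of -0.11 to 0.10 for hp2 (0.0041 with a filter of 10 RPM), -0.34 to 0.062 for lbl1, -0.27 to 0.081 for ARF18, -0.36 to 0.58 for DWF1, -0.20 to 0.34 for Sod4A, -1.0 to 1.02 for ns1, -0.43 to 0.56 for ARF9, -2.84 to 3.65 for YAB6, -0.81 to 0.22 for ARF3, -0.19 to 1.65 for YAB3, -1.67 to 5.16 for gst11, -0.16 to 0.48 for the MYB59 locus GRMZM2G093789, -0.43 to 0.018 for D8, -0.25 to 0.14 for PIN1d, -0.89 to 0.068 for rs2, -0.66 to 0.019 for pan1 and -0.56 to 0.028 for Pep1. At this depth and spread, differences near 2-fold were rarely callable.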
